A study of Mus musculus with 16 samples.

Results

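Oligodendrocyte and myelin genes were followed in mouse cortex after ERK/MAPK signaling had been lost or raised in excitatory neurons, which are not the cells that make most of these transcripts. A list of 33 genes was set, and a gene counted as a member where a probe set carried its symbol alone in both array tables, with the brightest probe set standing for the gene. This gave 31 members among the 19938 genes of the P9 and P14 table and the 22180 genes of the P21 table. Trf was measured in the P9 and P14 table only, and Enpp2 was not measured under a symbol of its own.

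The loss-of-function mutants were Map2k1/2;Neurod6-Cre mice, in which Map2k1 has a floxed exon 3 and Map2k2 a germline null allele. They were taken at P9 (2 mutants and 2 controls) and at P14 (3 mutants and 3 controls, whose labels give mutant or control only, the model being named in the methods). The gain-of-function mutants were ca-Map2k1;Neurod6-Cre mice at P21 (3 mutants and 3 controls), which carry a Cre-dependent, constitutively active Map2k1. Controls were littermates with or without Cre, and the sources used here do not give which control was which, which Map2k2 alleles the controls had, or which mice shared a litter. Neurod6-Cre recombines in postmitotic excitatory neurons of the cortex, with sparse recombination elsewhere, so oligodendrocytes should keep an unrecombined Map2k1 allele, although a germline Map2k2 deletion reaches every cell. RNA came from cortical tissue, named sensoricortex in the labels and dorsal cortex in the methods, from mice on a mixed background, and each mouse was hybridised to 1 Affymetrix gene array.

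Oligodendrocytes wrap axons in compacted membrane, and in rodent cortex most of this happens in the weeks after birth. The transcription factors Olig1, Olig2 and Sox10 are present along the whole lineage, whereas Myrf switches on the myelin program as the cell matures. Mature cells then make large amounts of a few structural proteins, such as Mbp, Mag, Mog and Cnp, and of galactolipids built by Ugt8a, Fa2h and Gal3st1. Neuronal activity and ligands on or from axons are known to influence how much myelin is laid down. Bulk tissue RNA cannot tell fewer oligodendrocytes from less transcript in each of them.

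Promoters of members that the comparisons below turn on are shown with the letters that SOX proteins and MYRF prefer. Each run holds 300 bases, 5′ to 3′ on the strand of the gene, ending shortly after the start site, from RefSeq on build GRCm38.p6. The Mag window, the most upstream of 3, lies at chr7:30914873-30915172 (minus strand), the Mog window at chr17:37023349-37023648 (minus strand), the Cnp window at chr11:100574689-100574988 (plus strand), the Ugt8a window at chr3:125938603-125938902 (minus strand) and the Cntn2 window at chr1:132542891-132543190 (minus strand). Mag, Mog, Cnp and Ugt8a were lower in every P21 mutant than in any P21 control, and Cntn2 had no overlap between mutants and controls at P14 and at P21. Capitals mark ACAAAG or ACAATG (SOX) and CTGGCAC or CTGGTAC (MYRF), searched on both strands.
Mag: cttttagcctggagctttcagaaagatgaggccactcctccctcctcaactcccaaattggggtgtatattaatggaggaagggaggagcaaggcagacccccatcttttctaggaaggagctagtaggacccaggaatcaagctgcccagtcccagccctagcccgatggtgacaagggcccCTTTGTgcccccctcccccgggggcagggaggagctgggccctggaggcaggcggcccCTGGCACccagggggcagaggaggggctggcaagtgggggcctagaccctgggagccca
Mog: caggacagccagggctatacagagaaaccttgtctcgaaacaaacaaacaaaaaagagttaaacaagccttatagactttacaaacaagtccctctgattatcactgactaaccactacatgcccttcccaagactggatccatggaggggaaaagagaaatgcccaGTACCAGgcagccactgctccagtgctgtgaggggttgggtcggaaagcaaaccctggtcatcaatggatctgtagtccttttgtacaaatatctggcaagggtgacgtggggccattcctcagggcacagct
Cnp: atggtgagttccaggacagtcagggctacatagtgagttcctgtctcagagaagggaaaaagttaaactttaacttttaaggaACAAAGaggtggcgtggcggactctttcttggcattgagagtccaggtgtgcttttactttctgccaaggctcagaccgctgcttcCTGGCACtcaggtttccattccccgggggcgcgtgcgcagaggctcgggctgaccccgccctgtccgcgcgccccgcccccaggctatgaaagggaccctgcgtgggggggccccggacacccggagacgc
Ugt8a: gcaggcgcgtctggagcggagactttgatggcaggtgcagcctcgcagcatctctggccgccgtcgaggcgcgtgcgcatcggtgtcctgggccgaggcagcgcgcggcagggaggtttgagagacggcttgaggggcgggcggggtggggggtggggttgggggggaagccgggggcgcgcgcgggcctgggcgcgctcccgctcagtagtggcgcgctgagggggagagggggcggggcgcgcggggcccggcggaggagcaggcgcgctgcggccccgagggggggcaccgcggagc
Cntn2: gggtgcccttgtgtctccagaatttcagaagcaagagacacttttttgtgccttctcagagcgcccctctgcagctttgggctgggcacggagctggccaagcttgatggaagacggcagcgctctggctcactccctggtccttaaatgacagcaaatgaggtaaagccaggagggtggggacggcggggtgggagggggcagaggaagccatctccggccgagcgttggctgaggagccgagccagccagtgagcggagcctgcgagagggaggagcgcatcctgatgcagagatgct
The Mag and Cnp windows each held 1 SOX and 1 MYRF match, the Mog window held 1 MYRF match, and the Ugt8a and Cntn2 windows held neither. Of the 33 listed genes, 23 had a promoter in the RefSeq table. Of these, 11 (47.8%) had a SOX match and 7 (30.4%) a MYRF match, against 28.8% and 7.10% of all 27025 promoters. A match is a description of the letters and not evidence of binding.

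Expression is given as log2 signal, so a difference of 1 means double the signal. Mutants and controls were compared within an age only, because the ages were normalized apart: array medians were 6.13 to 6.18 at P9, 7.91 to 8.08 at P14 and 6.23 to 6.31 at P21. Neurod6, the gene that carries Cre, was 7.07 to 7.71 in P9 mutants and 9.10 to 9.28 in P9 controls, and 6.16 to 6.78 in P14 mutants and 8.91 to 10.14 in P14 controls. At P21, Neurod6 was 8.33 to 8.52 in mutants and 8.46 to 8.75 in controls, and Map2k1 was 10.29 to 10.38 in mutants and 10.08 to 10.12 in controls. Map2k1 at gene level overlapped between mutants and controls at P9 and P14, where the probe set is a summary over the gene and only exon 3 is deleted. Map2k2 at gene level overlapped as well, with changes of 0.003 at P9 and 0.028 at P14. Its alleles in the controls are not given. At P14 the arrays of mutant 1 and control 2 stood apart from those of mice 9 to 12 (25th percentile of the array at 6.65 and 6.63, against 6.80 to 6.89), and their deviations from their group means correlated at 0.761 over all genes. Xist and Y-linked genes showed the P14 mutants 9 and 11 to be female and the other mice male, so sex differed between the P14 groups. Because of the array difference, P14 values are also given for mice 9 to 12 alone and with a block term for the 2 sets of arrays. Neither adjusts for sex. Among mice 9 to 12 both mutants were female and both controls male, so sex and genotype cannot be told apart there.

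The members were most shifted at P21, with active Map2k1 in excitatory neurons. Of 31 members, 27 were lower in mutants than in controls, whereas 45.7% of all genes were, and the median member change was -0.31 (0.81-fold) against 0.01 over all genes. Limma's adjusted p passed 0.05 for no member and for 0 of all 22180 genes (0%), and the lowest adjusted p of a member was 0.252. At an unadjusted p under 0.05, 13 members were lower and 0 higher, where 5.31% of all genes were lower and 5.12% higher. Mutants and controls did not overlap for 8 members, all lower in mutants, against 7.67% of all genes lower and 8.15% higher without overlap. At the thresholds of the study's methods, an unadjusted p under 0.05 and a change above 1.5-fold, 0 members and 1.11% of all genes were counted at P9, 0 members and 1.66% of genes at P14 and 0 members and 0.604% of genes at P21. Since no gene passed the adjusted threshold at P21, each member below is reported with its values and not as changed.

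**Figure D1:**
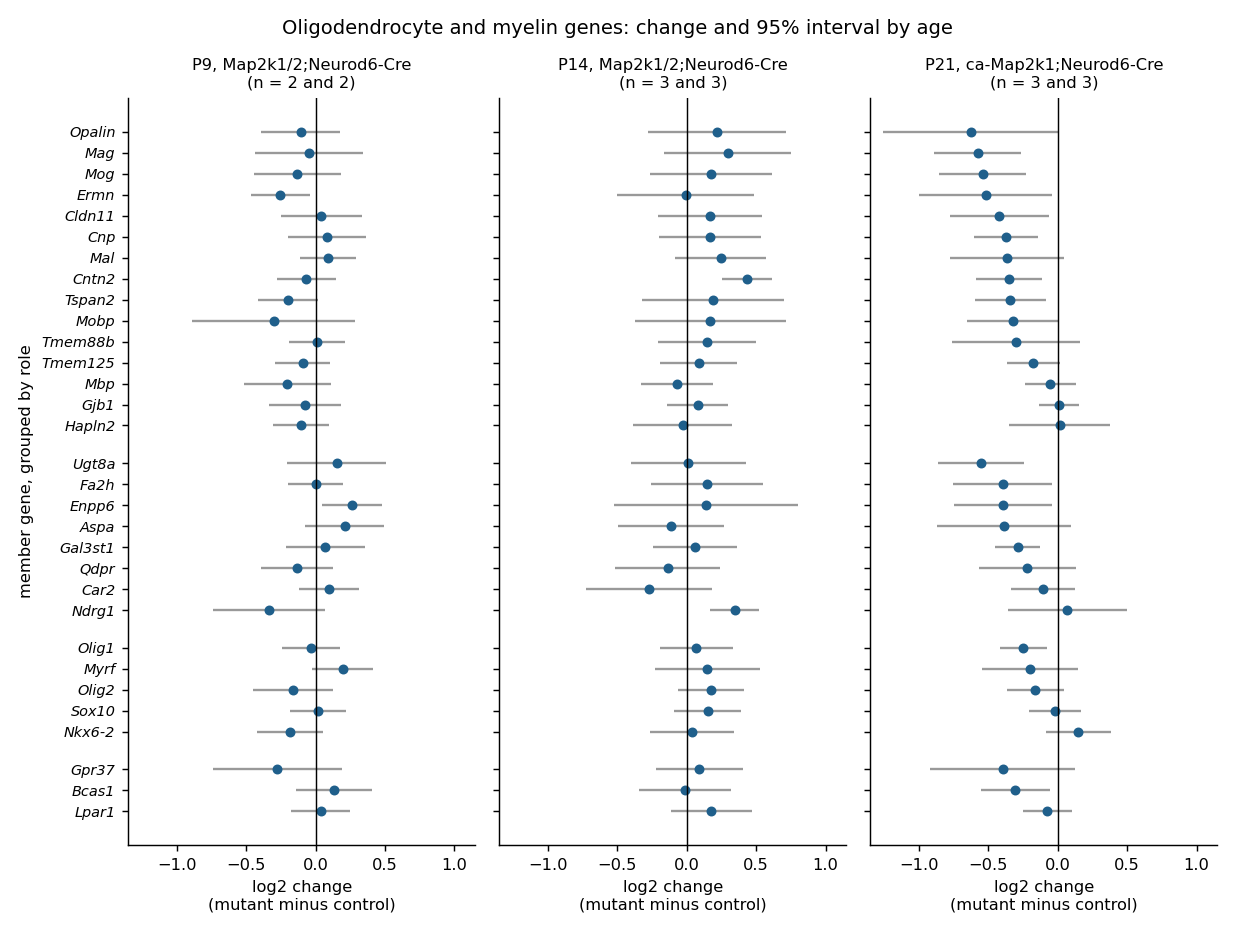
Log2 change of each of the 31 members (mutant minus control, x axis) at P9, P14 and P21, with members down the y axis in role groups (compact myelin and adhesion proteins, lipid and metabolic enzymes, transcription factors, receptors and others); points are limma estimates and bars their 95% intervals. At P21, 27 of 31 points lie left of 0, and at P14 the intervals of Cntn2 and Ndrg1 lie right of it.

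Among the compact myelin and adhesion proteins, 13 of 15 were lower at P21 and the median change was -0.35. Mag, a sialic acid-binding adhesion protein of the inner myelin wrap, was 9.25, 9.59 and 9.43 in mutants 1, 3 and 6, against 10.12, 10.15 and 9.73 in controls 2, 4 and 5. Every mutant lay below every control, and the change was -0.58 (SE 0.13, 0.67-fold, adjusted p = 0.252 by limma, as are all adjusted p below). Mog, an immunoglobulin-domain protein of the outermost myelin lamella, was 9.20, 9.40 and 9.16 in mutants and 9.98, 9.91 and 9.49 in controls, a change of -0.54 (SE 0.13, adjusted p = 0.254). For both genes mutant 3 was the highest mutant and control 5 the lowest control.

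Cnp, a phosphodiesterase of the cytoplasmic channels in myelin, was 9.51, 9.61 and 9.66 in mutants and 10.03, 10.09 and 9.77 in controls. The groups did not overlap, with a change of -0.37 (SE 0.10, adjusted p = 0.279). Cntn2, a GPI-anchored contactin found on axons and oligodendrocytes at the juxtaparanode, was 8.73, 8.94 and 8.77 in mutants and 9.34, 9.12 and 9.02 in controls, a change of -0.35 (SE 0.10, adjusted p = 0.322). Cntn2 is thus not specific to oligodendrocytes, and its transcript can come from neurons as well.

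Opalin, a membrane protein made late in oligodendrocyte differentiation, had the most negative estimate of all members at P21, at -0.63 (95% interval -1.26 to 0.00). It was 7.27, 7.55 and 6.67 in mutants and 8.03, 8.08 and 7.26 in controls, so control 5 lay within the mutants' range. Ermn, a cytoskeletal protein of late differentiation, had a change of -0.52, Cldn11, the tight junction claudin of myelin, -0.42, and Tspan2, a tetraspanin, -0.34, each at an unadjusted p under 0.05 with overlapping groups. Mal, a raft proteolipid, was at -0.37 and Mobp, a basic protein of the major dense line, at -0.32. Tmem88b and Tmem125, a pair of transmembrane proteins, were at -0.30 and -0.18.

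Mbp, the myelin basic protein that holds the cytoplasmic membrane faces together, had an estimate near 0. It was 10.63, 10.84 and 10.71 in P21 mutants and 10.83, 10.80 and 10.71 in controls, a change of -0.06 (95% interval -0.24 to 0.13), while the interval of Mag was -0.89 to -0.27. Gjb1, the connexin 32 gap junction protein, was 6.01, 6.04 and 6.03 in mutants and 6.06, 5.98 and 6.01 in controls, a change of 0.01. Its signal was low, with the control mean at -0.24 from the array median, and the part of this in its narrow interval was not tested. Hapln2, a link protein of the node matrix, was 7.03, 7.41 and 7.04 in mutants and 7.32, 7.29 and 6.83 in controls, also a change of 0.01. The median member change of -0.31 lay outside the interval of Gjb1 (-0.14 to 0.16) and inside that of Hapln2 (-0.35 to 0.38). Whether these genes differed from the other members was not tested.

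The lipid and metabolic enzymes showed a similar spread, with 7 of 8 lower at P21 and a median of -0.34. Ugt8a, the galactosyltransferase that makes galactosylceramide, was 9.15, 9.59 and 9.48 in mutants and 10.02, 10.09 and 9.76 in controls, a change of -0.55 (SE 0.13, 0.68-fold, adjusted p = 0.253). Gal3st1, the sulfotransferase that turns it into sulfatide, was 6.95, 7.02 and 6.92 in mutants and 7.24, 7.32 and 7.19 in controls, a change of -0.29 (SE 0.07, adjusted p = 0.253). Neither gene had a mutant at or above a control, so transcripts for both of these steps were below the controls in all 3 mutants.

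Fa2h, which hydroxylates the fatty acid of these lipids, had a change of -0.40, and Enpp6, a choline phosphodiesterase of newly made oligodendrocytes, -0.39, both at an unadjusted p under 0.05 with overlap. Aspa, which frees acetate from N-acetylaspartate, was at -0.39, Qdpr, a dihydropteridine reductase, at -0.22 and Car2, carbonic anhydrase 2, at -0.11. Ndrg1, a stress-regulated protein present in several cell types, was counted in this group without being described as an enzyme, and it was the group's member above 0. It was 9.83, 9.93 and 9.34 in mutants and 9.77, 9.82 and 9.30 in controls, a change of 0.07 (95% interval -0.36 to 0.50). In each of its groups 1 mouse was low, mutant 6 and control 5.

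The transcription factors lay closer to 0, with a median of -0.16. Olig1 was 9.05, 9.09 and 9.15 in P21 mutants and 9.41, 9.36 and 9.26 in controls, with no overlap and a change of -0.25 (SE 0.07, 0.84-fold, adjusted p = 0.321). Olig2 was at -0.16 and Myrf at -0.20, while Sox10 was at -0.02 (95% interval -0.21 to 0.17) and Nkx6-2, a homeobox factor of myelinating cells, at 0.15. Among the 3 remaining members, Bcas1, a marker of early myelinating cells, was 7.32, 7.66 and 7.49 in mutants and 7.73, 7.95 and 7.70 in controls, a change of -0.31 without overlap (adjusted p = 0.389). Gpr37, an orphan receptor of maturing oligodendrocytes, was at -0.40 and Lpar1, a lysophosphatidic acid receptor, at -0.08.

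**Figure D2:**
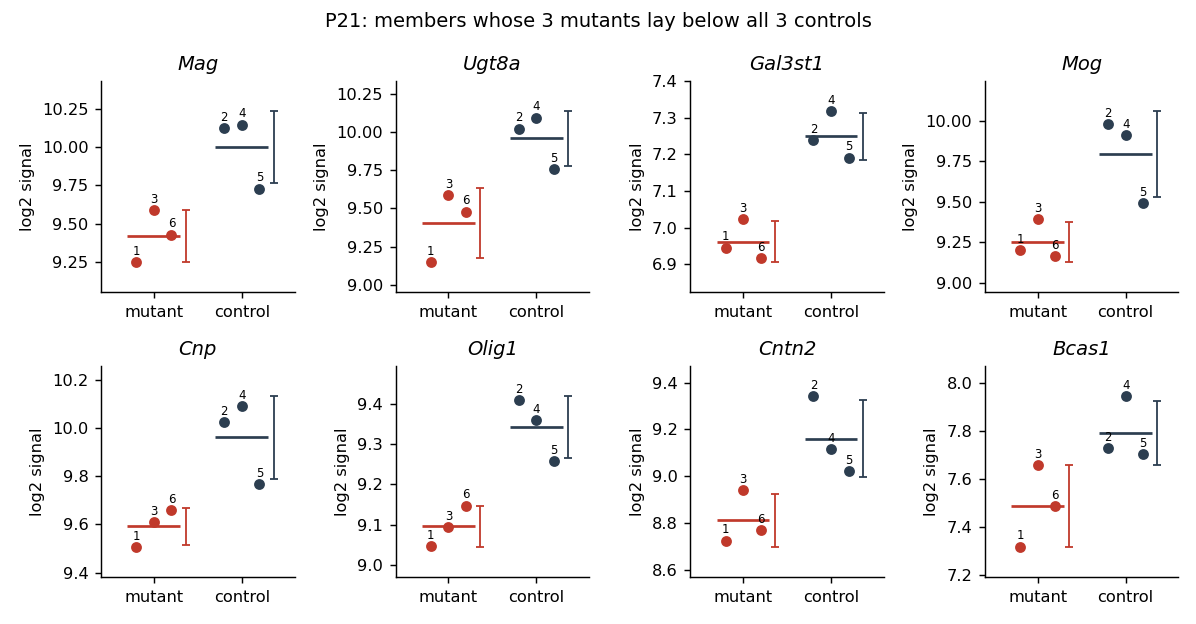
Log2 signal (y axis) of the 8 members whose 3 P21 mutants (red, left) lay below all 3 controls (dark, right); points are mice with their numbers, horizontal lines group means and bars 1 SD on either side of the mean. Mutant 3 is the highest mutant in 6 of the 8 panels and control 5 is the lowest control in all 8.

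Single mice moved these counts. Control 5 was the lowest control for 27 of 31 members and mutant 3 the highest mutant for 25, so the mean deviation of the members from the control mean was -0.34, -0.11 and -0.38 in mutants 1, 3 and 6 and 0.10, 0.10 and -0.21 in controls 2, 4 and 5. Without control 5 the number at an unadjusted p under 0.05 was 18 and without mutant 3 it was 20, whereas it was 8 without mutant 1, mutant 6, control 2 or control 4. The share of all genes lower at this p in each of these fits is not given here, and 5.31% is that of the full fit. The number lower without overlap was 8 to 21 when 1 mouse was left out, where 11.2% to 12.8% of all genes were, and 1 member was higher without overlap when mutant 1, mutant 6 or control 2 was left out. The median member change stayed between -0.42 (without control 5) and -0.24 (without control 4). Control 5 was also the highest control for endothelial and pericyte markers (mean deviation 0.26), and the part of this in the member values was not tested.

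Of the members with more than 1 probe set at P21, the brighter probe set of Bcas1 gave -0.31 and the dimmer -0.02, those of Tmem88b gave -0.30 and -0.15, and those of Ndrg1 gave 0.07 and -0.12. The brighter was used in each case.

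Other genes of the lineage were taken from fixed lists. Of 27 further genes of mature oligodendrocytes, 23 were lower at P21 (45.7% of all genes), with a median of -0.15. At an unadjusted p under 0.05, 5 of them were lower (5.31% of all genes) and none higher. The mean deviation of this list was -0.17, -0.02 and -0.27 in mutants 1, 3 and 6. It was 0.07, 0.10 and -0.17 in controls 2, 4 and 5, so the groups overlapped. Phldb1 was 7.64, 7.53 and 7.56 in mutants and 8.10, 7.90 and 7.81 in controls (change -0.36, adjusted p = 0.254), Adamts4, a secreted protease, was at -0.26 and Pllp, the plasmolipin of myelin rafts, at -0.35, all without overlap. Genes of the earlier lineage were nearer to 0: of 14 precursor genes 8 were lower, with a median of -0.02, and of 14 genes of committed precursors and new oligodendrocytes 7 were lower, with a median of 0.01.

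Within the precursor list Pcdh15, a protocadherin, was higher at P21, with 8.48, 8.39 and 8.35 in mutants and 8.11, 8.08 and 7.99 in controls (change 0.35, adjusted p = 0.243). Among 14 genes of the node, the paranode and axon contact, 13 were lower at P21 (45.7% of all genes), with a median of -0.07. Kcna1, the juxtaparanodal potassium channel, was at -0.31, Cntnap1, the paranodal Caspr, at -0.21 and Nfasc, the neurofascin of nodes and paranodes, at -0.19. Cadm1 was the exception, at 0.25. These 4 genes, 3 lower and 1 higher, had an unadjusted p under 0.05, as did 5.31% of all genes in the lower and 5.12% in the higher direction. Their adjusted p by limma was 0.371 to 0.476.

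Markers of other cells had medians near 0 at P21. The median change was 0.01 for astrocyte markers, -0.04 for microglia, 0.05 for endothelial cells and pericytes and -0.06 for excitatory neurons (8 of 11 lower). The last is close to the median of the node, paranode and axon contact list. Of 24 axonal ligands and receptors of myelination, 11 were lower and 13 higher, and none had an unadjusted p under 0.05. Nrg1 was at -0.03 and Bdnf at 0.11.

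**Figure D3:**
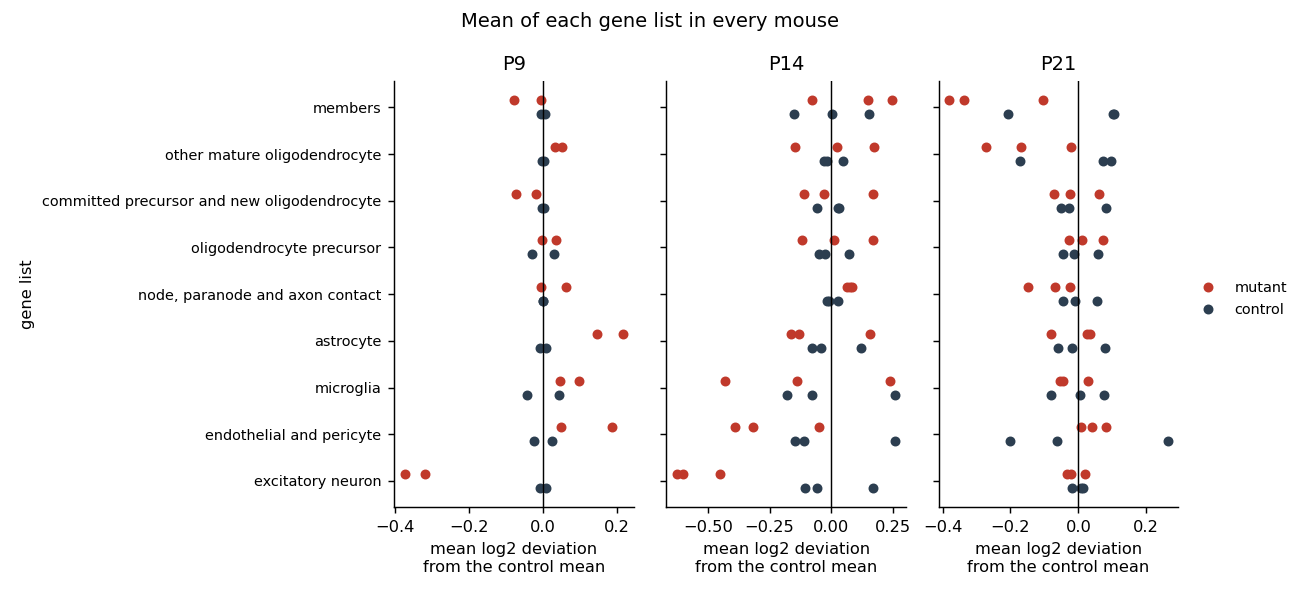
Mean log2 deviation from the control mean (x axis) over the genes of each list (y axis) for every mouse at P9, P14 and P21; red points are mutants and dark points controls. At P21 the member means of mutants 1 and 6 (-0.34 and -0.38) lie below all controls and that of mutant 3 (-0.11) lies above control 5 (-0.21). The excitatory neuron list includes Neurod6, the gene that carries Cre. Its P14 means are -0.45, -0.63 and -0.60 in mutants 1, 9 and 11, and its medians there are -0.08, -0.08 and -0.002.

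At P14, after loss of Map2k1/2, the members leaned the other way, but not within mice 9 to 12. Of 31 members 24 were higher in mutants, where 58.3% of all genes were, and the median change was 0.15 against 0.02 over all genes. No member passed an adjusted p of 0.05, which 217 genes (1.09%) did. The mean deviation of the members was 0.25, 0.15 and -0.08 in mutants 1, 9 and 11 and -0.15, 0.00 and 0.15 in controls 2, 10 and 12, so the groups overlapped. Within mice 9 to 12, 11 members were higher and 20 lower, with a median of -0.03, where 60.3% of all genes were higher, with a median of 0.04. In mutant 1 minus control 2, 28 members were higher, with a median of 0.38, where 46.7% of all genes were higher, with a median of -0.01. Without control 2 the median over all members was 0.01, without mutant 1 it was 0.09, and with sex as a covariate it was 0.23.

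Cntn2 and Ndrg1 were the members whose P14 mutants and controls did not overlap. Their number is close to what the shares of all genes given next would yield among 31 genes. The count therefore does not set the members apart from other genes, and both are described by their values and not as changed. At an unadjusted p under 0.05, 2 members were higher and 0 lower (4.05% and 4.38% of all genes), and the same 2 were the members without overlap, where 7.11% of all genes were higher and 6.52% lower without overlap. Cntn2 was 9.91, 9.90 and 9.86 in mutants 1, 9 and 11, against 9.43, 9.43 and 9.51 in controls 2, 10 and 12. The groups were far apart relative to their spread, with a change of 0.43 (SE 0.08, 1.35-fold, adjusted p = 0.0588).

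Ndrg1 was 10.01, 10.08 and 10.02 in mutants and 9.70, 9.72 and 9.67 in controls, a change of 0.35 (SE 0.08, 1.27-fold, adjusted p = 0.107). With the array sets as a block the adjusted p of Cntn2 was 0.00545 and that of Ndrg1 0.0117. Within mice 9 to 12 the changes were 0.41 (adjusted p = 0.0319) and 0.36 (adjusted p = 0.0414). In this subset the mutants were female and the controls male, so its values cannot separate genotype from sex. A fit with a sex term, in which mutant 1 is the only male mutant to set against the controls, gave 0.46 (adjusted p = 0.225) for Cntn2 and 0.32 (adjusted p = 0.455) for Ndrg1.

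**Figure D4:**
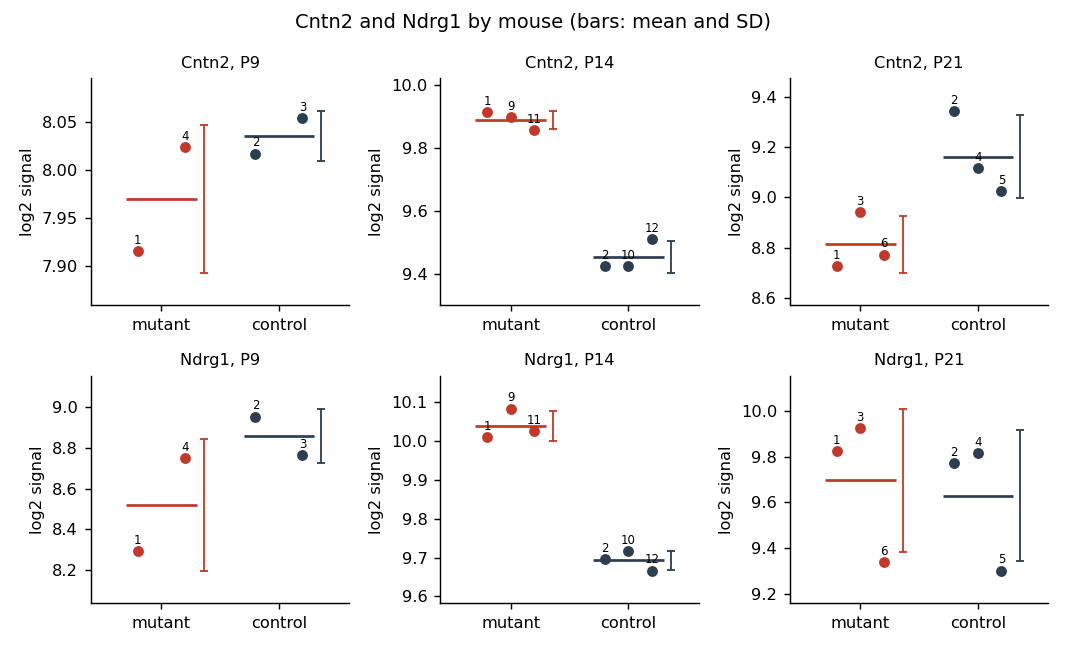
Log2 signal (y axis, own scale in each panel) of Cntn2 (upper row) and Ndrg1 (lower row) in mutants (red, left) and controls (dark, right) at P9, P14 and P21; points are mice with their numbers, horizontal lines group means and bars 1 SD on either side of the mean. At P14 all 3 mutants lie above all 3 controls for both genes, and at P21 all 3 mutants lie below all 3 controls for Cntn2.

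The other members at P14 overlapped between mutants and controls. Mag was 11.45, 11.45 and 11.14 in mutants and 10.62, 11.17 and 11.37 in controls, a change of 0.30 (SE 0.20), and its lowest value was that of control 2. Car2 was 10.89, 10.26 and 10.19 in mutants and 10.89, 10.54 and 10.72 in controls, a change of -0.27 (SE 0.19) that was -0.41 within mice 9 to 12 (adjusted p = 0.0507) and 0.17 with a sex term. Here mice 1 and 2 gave the same level, and the difference lay in mice 9 to 12, where sex and genotype cannot be told apart.

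Of the transcription factors all 5 were above 0 at P14, by 0.04 to 0.17. Olig2 was 9.65, 9.59 and 9.43 in mutants and 9.33, 9.30 and 9.52 in controls, a change of 0.17 (SE 0.10). Sox10 was 9.40, 9.46 and 9.36 in mutants and 9.14, 9.19 and 9.44 in controls, a change of 0.15 (SE 0.10). In both, control 12 lay inside the range of the mutants.

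Lpar1 was 9.87, 10.07 and 9.75 in P14 mutants and 9.52, 9.78 and 9.86 in controls, a change of 0.18, and Gpr37 was 9.28, 9.30 and 8.93 in mutants and 8.91, 9.09 and 9.24 in controls, a change of 0.09. The members nearest to 0 at P14 were Ermn and Bcas1, both at -0.01, and Ugt8a at 0.01. Ermn was 9.39, 9.04 and 8.67 in mutants and 8.71, 9.11 and 9.29 in controls, with mutant 1 the highest mouse and mutant 11 the lowest. Trf, the iron carrier transferrin that oligodendrocytes make, was at 0.05 at P9 and 0.02 at P14.

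Among lineage genes outside the members, Pex5l, a peroxin-related protein that neurons also express, passed the adjusted threshold at P14. It was 9.09, 9.05 and 9.01 in mutants and 9.99, 10.27 and 10.19 in controls, and fell by 1.10 (SE 0.10, adjusted p = 0.00492; 0.0545 without mutant 11). Pcdh15 was 8.35, 8.58 and 8.55 in mutants and 8.93, 9.37 and 9.16 in controls, a change of -0.66 (adjusted p = 0.0779, and 0.00210 with the array sets as a block). At P21 its estimate was above 0, as given above.

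Cntnap1, whose product binds contactins at the paranode, was 10.76, 10.98 and 10.89 in P14 mutants and 10.27, 10.42 and 10.45 in controls, a change of 0.50 (adjusted p = 0.0780, and 0.00276 with the block). It stood, as Cntn2 did, above the controls at P14 and below them at P21, and it is made by neurons. Of 27 further mature oligodendrocyte genes 18 were higher at P14 with a median of 0.05, of 13 precursor genes 9 were higher with a median of 0.06, and of 10 endothelial and pericyte markers 9 were lower with a median of -0.27. Of 11 excitatory neuron markers 5 were higher and 6 lower at P14, with a median of -0.06. Among them Neurod6 and Lamp5 fell by 3.07 (limma adjusted p = 0.00765) and by 1.79 (adjusted p = 0.00167). Neurod6 is the gene that carries Cre, and the part of the allele in its fall was not tested. The part of the marker shifts in bulk RNA in the member values was not tested either. Of 24 axonal ligands and receptors of myelination 16 were higher at P14, with a median of 0.05, and Bdnf, a neurotrophin, was the lowest at -0.42 (adjusted p = 0.138).

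At P9, with 2 mutants and 2 controls, 14 members were higher and 17 lower (51.8% of all genes higher), with a median of -0.05. No member passed an adjusted p of 0.05, which 15 genes (0.0752%) did, and no overlap was seen for 5 members higher and 6 lower, where it was seen for 22% and 19.7% of all genes. Enpp6 was 6.70 and 6.57 in mutants and 6.38 and 6.36 in controls, a change of 0.26 (SE 0.09, adjusted p = 0.391). Ermn, with low signal at this age, was 3.66 and 3.55 in mutants and 3.86 and 3.86 in controls, a change of -0.25 (SE 0.09, adjusted p = 0.395). These were the members at an unadjusted p under 0.05, as were 5.32% of all genes in the higher and 5.21% in the lower direction.

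The other estimates at P9 ran from -0.34 for Ndrg1 to 0.21 for Aspa. Fa2h was nearest to 0, with 5.89 and 5.91 in mutants and 5.92 and 5.87 in controls. Of the 27 further mature oligodendrocyte genes, Cryab, a small heat shock protein that astrocytes also make, passed the threshold: it was 10.10 and 10.02 in mutants and 8.95 and 9.07 in controls, and rose by 1.05 (SE 0.09, adjusted p = 0.0468). With any 1 of the 4 mice left out its adjusted p was 0.0673 to 0.239. Astrocyte markers were higher at P9 for 8 of 10 genes, with Gfap at 0.61 (adjusted p = 0.160), and the part of astrocytes in the Cryab value was not tested.

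Whether the loss-of-function changes differed between P14 and P9 was tested with an interaction term over both ages. No gene of 19938 passed an adjusted p of 0.05 by limma (0%), and 849 (4.26%) had an unadjusted p under 0.05. Of the members, Cntn2 had a difference in change (P14 minus P9) of 0.50 (SE 0.12, adjusted p = 0.714) and Ndrg1 of 0.68 (SE 0.18, adjusted p = 0.786), the only members at an unadjusted p under 0.05 (2.22% of all genes had one with a difference above 0). At P9 Cntn2 was 7.92 and 8.02 in mutants and 8.02 and 8.05 in controls, and Ndrg1 8.29 and 8.75 in mutants and 8.95 and 8.76 in controls, so neither stood above its controls at that age.

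Loss and gain of function were not measured at the same age, on the same array or in 1 fit, so their difference was not tested. Of 31 members, 21 were higher at P14 and lower at P21, a pattern shown by 26.3% of the 18962 genes in both tables. Within mice 9 to 12, 20 of the 31 members were lower at P14, so the count of 21 describes the estimates only. Cntn2 was the only member without overlap at both P14 and P21, in opposite directions. The share of all genes with this pattern is not given here, so it is not read as a trait of Cntn2.

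The members differed in how strongly they rose over the age at which myelin forms. In controls centred on their array medians, the median member was 0.71 higher at P14 than at P9 (0.94 with quantile normalization across the ages), against -0.14 for all genes (0.05 with quantile normalization). Age and the normalization of each age by itself cannot be told apart in these values, which were not tested. Ermn (3.32), Mobp (3.02), Opalin (2.86), Aspa (2.51), Mog (2.50) and Mal (2.49) had the steepest rises, and 10 of 31 members were above 1, as were 5.40% of all genes (14 members and 2.99% of genes with quantile normalization). Tspan2 (-1.38), Qdpr (-1.13) and Ndrg1 (-1.02) were at the other end, and with quantile normalization they were at -0.60, -0.33 and -0.32. In mutants the median was 0.73.

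Across the 31 members, the steeper the rise in controls between P9 and P14, the lower the P21 change tended to be, with Pearson's r of -0.496 and Spearman's rho of -0.513. This is a description over genes that were read on the same arrays and are not independent replicates. Over the 18962 genes in both tables r was -0.055. Mbp, with a rise of 1.39 and a P21 change of -0.06, and Ugt8a, with a rise of 0.87 and a P21 change of -0.55, lay away from that trend.

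**Figure D5:**
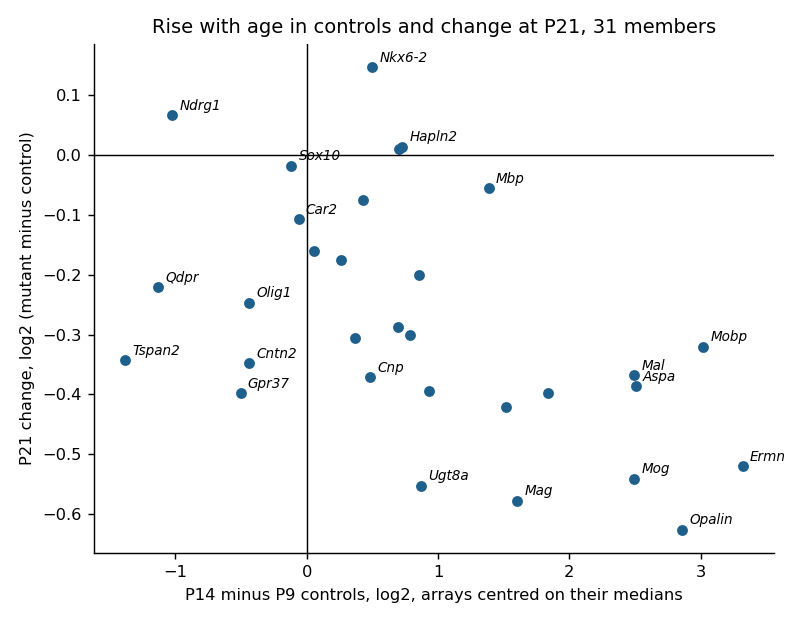
P21 change of each member (y axis, log2, mutant minus control) against the difference between P14 and P9 in loss-of-function controls (x axis, log2, arrays centred on their medians); each point is 1 of 31 members and 20 are named. Opalin, Ermn and Mog, with rises above 2, have P21 changes of -0.63, -0.52 and -0.54, while Nkx6-2 and Ndrg1 lie above 0.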

How the data were processed

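RNA of 16 cortices was hybridised to Affymetrix gene arrays. The deposited log2 values are the authors' RMA output (background adjustment, quantile normalization, median polish), and per the labels' processing notes Partek 6 was used; the genome build is not given in the sources used here. Labels name a miRNeasy kit and the methods Trizol with an RNeasy kit. Precision is limited by how many arrays each group has, since arrays have no read depth.

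Symbols came from the platform annotation. The P9 and P14 table held 35557 probe sets, of which 21789 had 1 symbol, 1621 several and 12147 none. The P21 table held 41345, of which 23521 had 1 symbol, 1820 several and 16004 none. Only those with 1 symbol were used, and the brightest stood for a gene. Mutants were compared with controls within each age in limma 3.58.1 under R 4.3.3 (lmFit, then eBayes; two-sided, Benjamini-Hochberg over all genes, threshold 0.05), a model that takes the place of the mixed-model analysis named in the methods. The code was tested on simulated data.

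The members, gene lists and rules were chosen with earlier results of these data known. Members are described by role, with values per mouse for those without overlap at an unadjusted p under 0.05, the 2 of each role with the largest P14 change and those nearest 0, and up to 3 genes of each list. Mice are separate animals. Alternatives were quantile normalization, median centring, a filter under the 30th percentile of brightness, no moderation, trended and robust moderation, the mean of probe sets, all groups in 1 fit, the array sets as a block, mice 9 to 12 alone, sex as a covariate, and each mouse left out. No scanner files were used. Of the lists, interneuron, striatum, Schwann cell and choroid plexus, meninges and blood markers had median changes at P21 of 0.04, -0.08, -0.01 and 0.04.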

Additional observations from a re-analysis of the deposited data

How the results depend on the processing

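The number of members called at an adjusted p under 0.05 was 0 at P9 and P21 under every alternative run. At P14, 1 member, Cntn2, was called with quantile normalization (316 of all genes called) and with the filter on dim genes (269). The same member was called with trended and robust moderation (239 of all genes) and with all groups in 1 fit (480). Cntn2 and Ndrg1, 2 members, were called with the array sets as a block (1333 of 19938 genes) and within mice 9 to 12 (984). The main fit called 217 genes and no member. The calls at P14 within mice 9 to 12 rest on 2 mutants, both female, and 2 controls, both male. The median member change at P14 was -0.035 within mice 9 to 12 and 0.38 in mutant 1 minus control 2, an alternative chosen after seeing the data, and 0.01 to 0.21 with each mouse left out. With sex as a covariate it was 0.23. At P9 the median was -0.048 to 0.011 with each mouse left out, the highest without mutant 4. At P21 it was -0.42 to -0.24, and the number of members lower at an unadjusted p under 0.05 was 7 without moderation and 12 to 16 with other normalizations, filters, moderation or probe set rules. The share of all genes at this p under those settings is not given here. The 17 member changes at an unadjusted p under 0.05 were followed against the adjusted threshold of 0.05, which none of them passed in the main fit. Under alternatives, 203 values kept direction and side of the adjusted threshold, 8 passed it in the same direction and none reversed. Keeping that side does not show that the unadjusted p held, since the P21 count at that p was 7 without moderation. Other members did change direction: Car2 at P14 was 0.17 with sex as a covariate, and with each mouse left out Mobp at P14 was -0.10 to 0.39 and Ndrg1 at P21 -0.10 to 0.25. Leaving out a mouse took the adjusted p of Cntn2 at P14 to between 0.0696 and 0.313.

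The methods name 2 independent litters at P9 and 3 at P14. No paired analysis was possible because no source used here assigns the mice to those litters. With 2 or 3 mice a group, a p above the threshold does not show that a gene was unchanged. The cause of the differences between settings was not tested.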

Other observations

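Egr2, which drives myelination in Schwann cells and is also induced by activity in neurons, was the only gene of the 4 measured Schwann cell and peripheral nerve genes to pass the adjusted threshold at P14, where it fell by 1.23 (SE 0.17, adjusted p = 0.0243 by limma). Egr2 was at -0.44 (adjusted p = 0.266) at P9 and at -0.30 (adjusted p = 0.362) at P21. Of the 27 further mature oligodendrocyte genes at P9, 15 were higher and 12 lower, with a median of 0.02, and the lowest was Pex5l at -0.62 (adjusted p = 0.182). On the higher side Jam3, a junctional adhesion protein, was at 0.43 (adjusted p = 0.209) and Gjc3, a connexin, at 0.44 (adjusted p = 0.247), while their P21 estimates were -0.29 and -0.18.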
